A study of Mus musculus with 24 samples.

Results

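The 10 genes described here carry antigen presentation by MHC class II in the mouse: H2-Aa, H2-Ab1, H2-Eb1, Cd74, Ciita, H2-DMa, H2-DMb1, H2-DMb2, H2-Oa and H2-Ob. They were taken by their symbols from 32451 genes or transcripts on the array, and all 10 had a probe. Their mRNA was measured in CD11b+ cells of the spleen and the bone marrow. The mice were WT, HDC-KO (without histidine decarboxylase, the enzyme that makes histamine) or STAT6-KO (without a transcription factor of the interleukin-4 and interleukin-13 pathways). They were male, on a Balb/C background and 10 weeks old, and were either controls or had gone through myocardial infarction (MI) 1, 2 or 4 weeks before. Each condition had 1 one-colour array, and the study's methods give 5 mice in each group. No condition had a replicate array, so p-values rest on the spread between conditions. The HDC-KO spleen control array and the STAT6-KO bone marrow MI 1 week array held too few spots for use, which left 22 arrays, 11 a tissue.

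MHC class II molecules show peptides from taken-up material to CD4+ T cells and are best known from dendritic cells, B cells and macrophages. Their α and β chains (H2-Aa, H2-Ab1, H2-Eb1) are assembled with the invariant chain (Cd74), and H2-DM then helps to load peptide while H2-O holds H2-DM back. Ciita is the co-activator that switches the whole set on. It does not bind DNA itself but is recruited by RFX, CREB and NF-Y proteins on the X and Y boxes of class II promoters. CD11b is an integrin of neutrophils, monocytes and macrophages that part of the dendritic cells and some B cells also carry.

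Promoter sequences are shown for the 6 members found to hold a motif known from class II promoters. Of the 10 genes, 7 had a promoter in the RefSeq table (build GRCm38.p6), with 8 promoters in all, since H2-DMa had more than 1 start. The letters TGATTGG (around the Y box) preceded by AAC (in the X box) at a distance of 20 to 30 bases were found in 6 of these 8 promoters. Over both strands, 1.05% of the 32851 promoters of the same length held that pattern and 7.82% held TGATTGG alone. The pattern was written after these promoters had been read, so its count is a description. Neither H2-DMa promoter held TGATTGG. The 60 bases that end with the Y box are given 5′ to 3′ on the strand of each gene, with AAC and TGATTGG in capitals:
H2-Aa (chr17:34287867-34287926, minus strand): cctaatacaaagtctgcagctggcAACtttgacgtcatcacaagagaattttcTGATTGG
H2-Eb1 (chr17:34305753-34305812, plus strand): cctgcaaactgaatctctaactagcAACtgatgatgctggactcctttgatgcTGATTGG
H2-DMb1 (chr17:34153075-34153134, plus strand): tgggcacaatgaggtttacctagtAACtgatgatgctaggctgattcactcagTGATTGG
H2-DMb2 (chr17:34145104-34145163, plus strand): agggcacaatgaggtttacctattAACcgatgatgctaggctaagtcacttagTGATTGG
H2-Oa (chr17:34092281-34092340, plus strand): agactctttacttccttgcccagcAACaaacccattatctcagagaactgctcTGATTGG
H2-Ob (chr17:34238793-34238852, plus strand): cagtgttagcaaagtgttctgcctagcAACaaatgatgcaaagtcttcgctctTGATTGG
The distance from AAC to the Y box letters was 25 bases in H2-Eb1, 23 in H2-Ob and 26 in the other 4 genes. The Y box letters ended 38 to 85 bases before the start of transcription, nearest in H2-Oa and farthest in H2-DMb2.

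Values are log2 spot signals after subtraction of the 75th percentile of the array, so 0 is the level of that percentile, and levels of different genes cannot be set against each other. The 75th percentile was a signal of 928 to 2461, and between 70.4% and 79.8% of spots were well above background. All 10 genes were well above background on all 22 arrays. Hdc was at 1.67 to 2.78 in the HDC-KO arrays and at 4.32 to 5.51 in WT. On its brightest probe, Stat6 had lower values in STAT6-KO (1.76 to 2.44, against 2.38 to 3.70 in WT), with ranges that overlapped in the spleen. The library labelled STAT6-KO spleen MI 4 weeks was below the WT range on that probe (2.12) and within it on the other 2 Stat6 probes (0.73 and 0.20). Results that use this array are therefore given without it too, where it decides them. Each genotype of a tissue was on a slide of its own and each time point had the same place on every slide, so genotype and slide, and time and place, cannot be told apart within a tissue. No slide held both tissues, so tissue and slide cannot be told apart within a genotype.

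Every class II gene was higher in CD11b+ cells of the spleen than of the bone marrow. In the 10 pairs of arrays of the same genotype and time, all 10 genes were higher in the spleen in 10 of 10 pairs, and all 10 passed the test (limma, with the pair as a block), against 54.5% of all 27659 genes tested. Of all genes, 22.4% passed as higher in the spleen and 14.5% were higher in every pair. The ranges of the tissues did not overlap for 7 members, all higher in the spleen, as for 6.59% of all genes. The median difference of the members was 2.24 on the log2 scale, and that of all genes was -0.17. The differences ranged from 0.93 (H2-Ab1) to 3.98 (H2-Oa). The pairs of a genotype share slides, and the test took all pairs as independent. In RNA of a whole cell fraction, more cells of a type and more RNA per cell cannot be told apart.

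Among the peptide-binding chains, H2-Aa had spleen values of 0.71 to 2.07 (median 1.57) and bone marrow values of -1.67 to -0.04 (median -0.68). The ranges did not overlap, and H2-Aa was higher by 2.38 ± 0.15 (SE), or 5.22-fold (adjusted p = 2.89e-07). H2-Ab1 reached 5.52 to 6.49 in the spleen (median 5.99) and 4.37 to 5.69 in the bone marrow (median 5.02). Its ranges overlapped, yet each pair was higher in the spleen, and the difference was 0.93 ± 0.15 (adjusted p = 0.000297). H2-Eb1 was at 4.76 to 5.79 (median 5.21) and at 3.72 to 4.53 (median 4.16), a difference of 1.06 ± 0.16 with no overlap (adjusted p = 0.000128). The second H2-Ab1 probe gave 0.99 ± 0.16 (adjusted p = 0.00024, over all probes).

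Cd74 (the invariant chain) was at 3.48 to 5.25 in the spleen (median 4.64) and at 2.29 to 4.49 in the bone marrow (median 3.74). Over the pairs, the spleen was higher by 0.03 (WT, MI 4 weeks) to 2.54 (STAT6-KO, MI 4 weeks), with a fitted difference of 1.14 ± 0.23 (adjusted p = 0.00142). Ciita was at 2.96 to 4.06 in the spleen (median 3.79) and at -1.39 to 0.91 in the bone marrow (median 0.13). The lowest spleen array was above the highest bone marrow array, and the difference was 3.43 ± 0.21, or 10.8-fold (adjusted p = 1.97e-07).

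The peptide-loading genes were higher in the spleen by 1.42 ± 0.14 for H2-DMa (adjusted p = 5.28e-06), 2.09 ± 0.14 for H2-DMb1 (adjusted p = 2.97e-07) and 3.04 ± 0.20 for H2-DMb2 (adjusted p = 3.34e-07). H2-DMb2 was at -0.41 to 1.53 in the spleen and at -3.09 to -1.64 in the bone marrow, without overlap. The H2-DMa ranges overlapped, at 0.25 to 1.33 and -1.21 to 0.54. H2-DMb1 and H2-DMb2 are neighbouring copies of the β chain gene, and cross-binding of their probes was not tested.

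The H2-O chains had the largest fitted differences of the 10 members on their chosen probes. H2-Oa was at 0.64 to 2.09 in the spleen (median 1.48) and at -3.17 to -1.92 in the bone marrow (median -2.39), a difference of 3.98 ± 0.14, or 15.8-fold (adjusted p = 3.79e-09). H2-Ob was at 1.56 to 3.15 (median 2.39) and at -3.47 to 0.96 (median -0.63), a difference of 3.49 ± 0.18 (adjusted p = 6.57e-08). The second H2-Ob probe gave a smaller difference, 1.22 ± 0.20 (adjusted p = 0.000239, over all probes), so the size for H2-Ob depends on the probe. The plot of the genes by array shows these ranges, and the plot of the pairs shows that no pair went the other way.

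**Figure D1:**
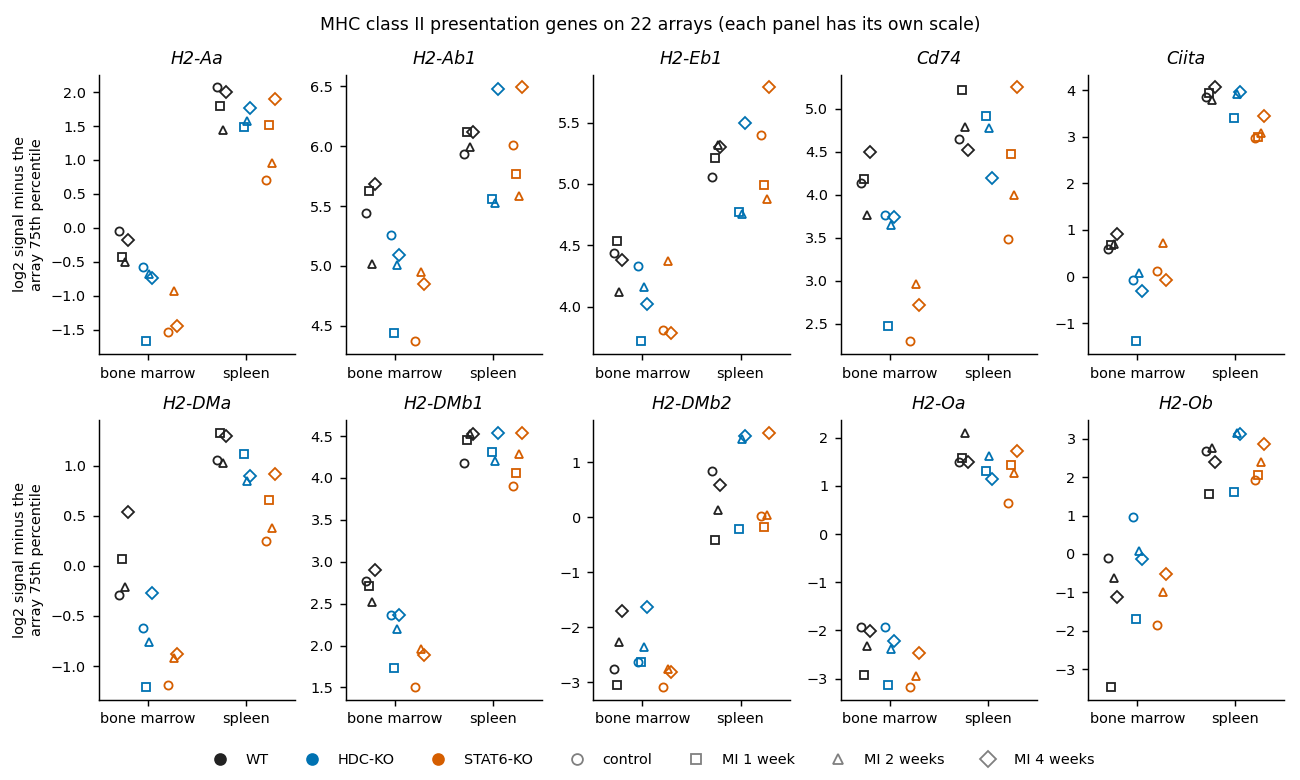
Log2 signal minus the 75th percentile of the array (y axis, its own scale in each panel) for the 10 genes on 22 arrays, by tissue (x axis), genotype (colour) and time after MI (symbol), 1 point an array. Spleen and bone marrow do not overlap for 7 genes (6.59% of all genes lay apart in this direction) and overlap for H2-Ab1, Cd74 and H2-DMa.

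**Figure D2:**
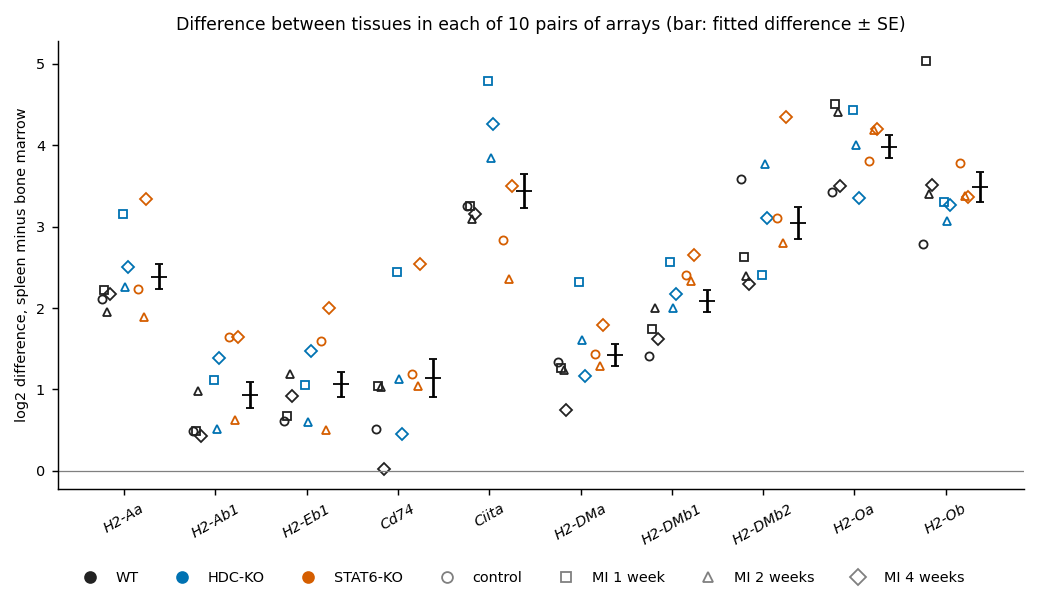
Spleen minus bone marrow on the log2 scale (y axis) in each of the 10 pairs of arrays, by gene (x axis), with colour for genotype and symbol for time; the black bar is the fitted difference ± SE. All 10 pairs of all 10 genes are above 0, from 0.03 for Cd74 upwards.

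Other genes of the pathway were counted by a list. Of 12 tested genes that process or remove class II or act beside it, 10 were higher in the spleen and 1 was lower (median 1.08). Of all 27659 genes tested, 22.4% passed as higher and 8877 genes passed as lower. The largest rises were those of Cd83, which keeps class II at the surface (3.51 ± 0.15, adjusted p = 1.15e-08), Cd40 (2.85 ± 0.20, adjusted p = 4.35e-07) and Cd86 (2.65 ± 0.18, adjusted p = 3.89e-07), a costimulatory receptor and ligand, whereas Cd80 was lower (-0.54 ± 0.14, adjusted p = 0.00798). Of 14 genes of class II transcription, 4 were higher and 5 lower (median -0.16, close to the -0.17 of all genes). Irf8 (1.32 ± 0.18, adjusted p = 8.45e-05) and Rfx5 (1.02 ± 0.15, adjusted p = 0.000124) rose, and Nfyb (-0.86 ± 0.12, adjusted p = 6.51e-05), Nfya (-0.77 ± 0.12, adjusted p = 0.000243) and Rfxap (-0.57 ± 0.13, adjusted p = 0.00286) fell. Of 11 MHC class I genes, 4 were higher and 1 was lower, with a median of 0.09.

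Markers of other cells moved with the tissue too. Of the marker lists, 8 of 10 dendritic cell genes, 8 of 10 B cell genes, 6 of 8 monocyte and macrophage genes and 7 of 8 T cell genes were higher in the spleen, against 22.4% of all genes. Cd22 of B cells (-0.32 ± 0.12, adjusted p = 0.0341), Lyz2 of myeloid cells (-1.36 ± 0.15, adjusted p = 1.41e-05) and Cd3d of T cells (-1.5 ± 0.15, adjusted p = 5.94e-06) were lower. All 8 neutrophil granule genes and both CD11b integrin genes (median -1.39) were lower, against 8877 of all 27659 genes tested. The log2 of the summed B cell markers was 4.76 to 6.61 in the spleen and 2.35 to 5.19 in the bone marrow, and that of the dendritic cell markers 5.72 to 6.87 and 5.38 to 6.38. B cell markers were well above background for 10 of 10 genes in the spleen and for at least 9 in the bone marrow, so these markers were measured in every CD11b+ fraction. Their part in the class II difference was not tested.

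Within the bone marrow, 4 of the 10 class II genes were lower in STAT6-KO than in WT cells: Cd74, H2-Aa, H2-DMa and H2-DMb1. On the chosen probes, the fitted differences of all 10 were below 0, as were those of 42.5% of all genes. The second H2-Ob probe was above 0 (0.19 ± 0.29, adjusted p = 0.743, over all probes). Of all 27090 genes tested, 4.61% passed. The median difference was -0.78, against 0.07 for all genes. The 2 knockouts share the WT arrays, so the values of each stand side by side below with no comparison between them.

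Cd74 was at 4.13, 4.18, 3.77 and 4.49 in WT bone marrow (control and 1, 2 and 4 weeks after MI), and at 2.29, 2.96 and 2.71 in STAT6-KO bone marrow (control, 2 and 4 weeks). All STAT6-KO arrays lay below all WT arrays, and the fitted difference was -1.64 ± 0.32, or 0.322-fold (adjusted p = 0.0344). H2-Aa was at -0.04, -0.43, -0.51 and -0.17 in WT and at -1.53, -0.93 and -1.45 in STAT6-KO (-1.16 ± 0.25, adjusted p = 0.0475). H2-DMa was at -0.29, 0.07, -0.21 and 0.54 in WT and at -1.19, -0.92 and -0.88 in STAT6-KO (-1.10 ± 0.21, adjusted p = 0.0322). H2-DMb1 was at 2.77, 2.70, 2.52 and 2.90 in WT and at 1.5, 1.96 and 1.89 in STAT6-KO (-1.01 ± 0.19, adjusted p = 0.0315). For each of these 4 genes the arrays of both genotypes were apart, and so were those of H2-Ab1, which did not pass (-0.77 ± 0.27, adjusted p = 0.15). Of all genes, 3.92% lay apart with STAT6-KO lower.

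The other members of the set overlapped between the genotypes. H2-Oa had a difference of -0.79 ± 0.20 (adjusted p = 0.0717), H2-DMb2 of -0.60 ± 0.19 (adjusted p = 0.13), Ciita of -0.62 ± 0.29 (adjusted p = 0.263), H2-Eb1 of -0.41 ± 0.23 (adjusted p = 0.339) and H2-Ob of -0.38 ± 0.45 (adjusted p = 0.662). Ciita did not separate the genotypes in bone marrow, since the STAT6-KO array 2 weeks after MI (0.72) was within the WT range of 0.58 to 0.91.

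The 4 calls depended on the arrays in the fit. With WT and STAT6-KO alone, 0 of the 10 passed, but so did 0 of all genes. Without the control arrays 0 of the 10 passed and 85 of all genes did, without the MI 2 weeks arrays 0 and 11, and without the MI 4 weeks arrays 0 and 295, in place of 1248. Over 15 alternatives, Cd74 and H2-DMa passed in 10, H2-DMb1 in 9 and H2-Aa in 7, with differences between -0.87 and -2.0 throughout. The t-test of the study's methods is among these alternatives and was counted before adjustment. It asked for p under 0.05 together with a fold change over 2. It was unpaired and took control and MI arrays of a genotype as replicates. It called 3 of the 10 (4.11% of all genes) before adjustment and 0 of the 10 after it. The STAT6-KO control array was below both STAT6-KO arrays after MI for 8 of the 10 genes, and for 31.1% of all genes.

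**Figure D3:**
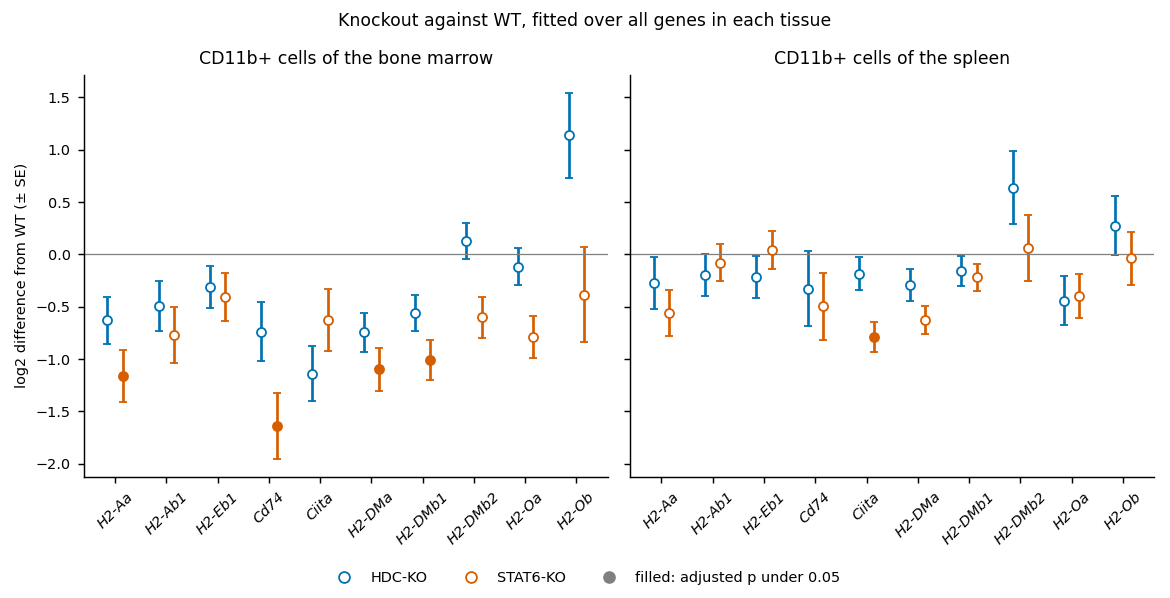
Fitted log2 difference of HDC-KO (blue) and STAT6-KO (orange) from WT, ± SE (y axis), for each gene (x axis) in bone marrow (left) and spleen (right); filled points passed the test. Points show the chosen probe of each gene. In bone marrow all 10 STAT6-KO points are below 0, from -0.38 to -1.64, and 4 are filled. In spleen the only filled point is Ciita in STAT6-KO.

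Genes of other lists changed in the same bone marrow comparison. Of 5 plasma cell genes, 3 were higher in STAT6-KO: Jchain, which joins immunoglobulin polymers (2.93 ± 0.59, adjusted p = 0.0398), Prdm1, a transcription factor of plasma cell differentiation (1.44 ± 0.14, adjusted p = 0.00348), and Derl3 of the endoplasmic reticulum (1.22 ± 0.15, adjusted p = 0.00775). The log2 of their sum was 0.62 to 1.27 in WT, 0.38 to 2.53 in HDC-KO and 2.94 to 4.10 in STAT6-KO bone marrow, and at least 4 of the 5 genes were well above background on every array. Pax5, the B cell identity factor, was lower (-1.04 ± 0.19, adjusted p = 0.0275), and the other 9 B cell genes did not pass. Irf8, needed for dendritic cells and monocytes, was lower (-0.69 ± 0.15, adjusted p = 0.0489), the 1 of 14 class II transcription genes that passed. Of the 12 other pathway genes, 0 passed (median -0.25), and of the 11 MHC class I genes 0 passed (median -0.61), with all 11 below 0. All 8 neutrophil granule genes were above 0 (median 0.51) and 2 of 9 dendritic cell genes were (median -0.48), with 0 called in either list by limma. The part of plasma cell, B cell, dendritic cell, neutrophil or interferon-induced genes in the class II difference was not tested. The interferon-induced list was at 4.46 to 8.08 in WT and 3.0 to 6.90 in STAT6-KO bone marrow. Without the WT MI 1 week and STAT6-KO MI 4 weeks arrays, which had the highest levels of that list in their genotype and tissue, 0 of the 10 class II genes passed, against 825 of all genes, and the 4 differences were -0.87 to -1.40.

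In the spleen, Ciita was the only member that passed between STAT6-KO and WT (1 of 10, against 1.95% of 26476 genes tested). It was at 3.84, 3.94, 3.79 and 4.06 in WT and at 2.96, 3.0, 3.07 and 3.44 in STAT6-KO (control and 1, 2 and 4 weeks after MI). Every STAT6-KO array was below every WT array, and the difference was -0.79 ± 0.14, or 0.578-fold (adjusted p = 0.041). The call was lost without the library labelled STAT6-KO MI 4 weeks, where the difference was -0.83 (adjusted p = 0.0681), and it held under 4 of 16 alternatives. H2-DMa was apart as well (3.4% of all genes lay apart with STAT6-KO lower), at 1.03 to 1.33 in WT and 0.25 to 0.92 in STAT6-KO, but did not pass (-0.62 ± 0.13, adjusted p = 0.0587). The median difference of the 10 genes was -0.31, with 8 below 0 (56.7% of all genes), and that of all genes was -0.06. In the same comparison 1 of 11 MHC class I genes passed, Nlrc5, the class I counterpart of Ciita, which was lower (-1.32 ± 0.25, adjusted p = 0.0474). Of 10 B cell genes 1 passed, Cr2, which was higher (1.1 ± 0.20, adjusted p = 0.0431). Of 8 neutrophil granule genes 1 passed as lower, with a list median of -0.78 and 0 genes above 0.

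HDC-KO did not differ from WT at the threshold for any member. In bone marrow, limma called 0 of the 10 (0.443% of all genes passed), although 6 had an unadjusted p-value under 0.05, as had 21.2% of all genes. The t-test of the study's methods called 1 of the 10, Ciita, before adjustment and 0 after it, and 3.68% of all genes before adjustment. For 4 members, all lower in HDC-KO, the genotypes did not overlap, as for 4.27% of all genes. Ciita was at -0.07, -1.39, 0.08 and -0.30 in HDC-KO bone marrow (control and 1, 2 and 4 weeks after MI) and at 0.58, 0.69, 0.70 and 0.91 in WT. The genotypes were apart, with a difference of -1.14 ± 0.26 (adjusted p = 0.121). H2-Aa (-0.63 ± 0.22, adjusted p = 0.192), Cd74 (-0.74 ± 0.28, adjusted p = 0.209) and H2-DMb1 (-0.56 ± 0.17, adjusted p = 0.16) were apart too, and H2-DMa was at -0.74 ± 0.19 (adjusted p = 0.133). H2-Ob went the other way (1.14 ± 0.41, adjusted p = 0.194) on its chosen probe, and its second probe gave -0.60 ± 0.26 (adjusted p = 0.245, over all probes). The mean of the 10 genes was 0.07 on the HDC-KO array 1 week after MI, against 0.90 to 1.08 on the other 3 arrays of that genotype and tissue.

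In the spleen, limma called 0 of the 10 between HDC-KO and WT (2.8% of all genes passed), 0 had an unadjusted p-value under 0.05 (22.6% of all genes had), and the t-test of the methods called 0. The differences ran from -0.44 (H2-Oa) to 0.64 (H2-DMb2), with a median of -0.21.

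Whether a knockout acted differently in the 2 tissues was tested by an interaction over all 22 arrays. For STAT6-KO, 1 of the 10 passed, H2-DMb1, whose STAT6-KO difference was 0.79 ± 0.22 less negative in the spleen than in the bone marrow (adjusted p = 0.0485, where 5.93% of all genes passed). It held under 5 of 15 alternatives and was lost without the library labelled STAT6-KO spleen MI 4 weeks (0.74, adjusted p = 0.0915). Cd74 had a larger value with a larger error (1.14 ± 0.48, adjusted p = 0.178), and Ciita a value near 0 (-0.17 ± 0.32, adjusted p = 0.806). For HDC-KO, limma called 0 of the 10 (1.33% of all genes passed), with 1 unadjusted p-value under 0.05 (21.7% of all genes), that of Ciita (0.96 ± 0.32, adjusted p = 0.112). The other 9 members had no call for a difference of the STAT6-KO effect between the tissues.

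No class II gene passed the test for MI. Limma called 0 of the 10 after MI against control in the spleen (0.00378% of all genes passed, 1 gene) and 0 in the bone marrow (0% of all genes passed). An unadjusted p-value under 0.05 was found for 1 member in each tissue, H2-DMb1 in the spleen (0.35 ± 0.15, adjusted p = 0.301) and H2-Ob in the bone marrow (-1.0 ± 0.39, adjusted p = 0.273), whereas 15.7% and 16.7% of all genes had such a p-value. The second H2-Ob probe gave -0.14 ± 0.26 in the bone marrow (adjusted p = 0.814) and -0.02 ± 0.22 in the spleen (adjusted p = 0.966), over all probes. On the chosen probes, the median difference after MI of the 10 genes was 0.18 in the spleen, with 9 above 0. It was -0.07 in the bone marrow, with 2 above 0. That of all genes was -0.08 and 0.02, and their share above 0 was not counted. Over the alternatives, the median of the 10 genes ranged from 0.04 to 0.47 in the spleen. In the bone marrow it ranged from -0.48 to 0.16, and was above 0 without the HDC-KO arrays (0.16). All 7 tested interferon-induced genes were above 0 in both tissues, with medians of 1.97 and 1.60, and 0 of these passed by limma. MHC class I genes had medians of 0.49 and 0.47.

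**Figure D4:**
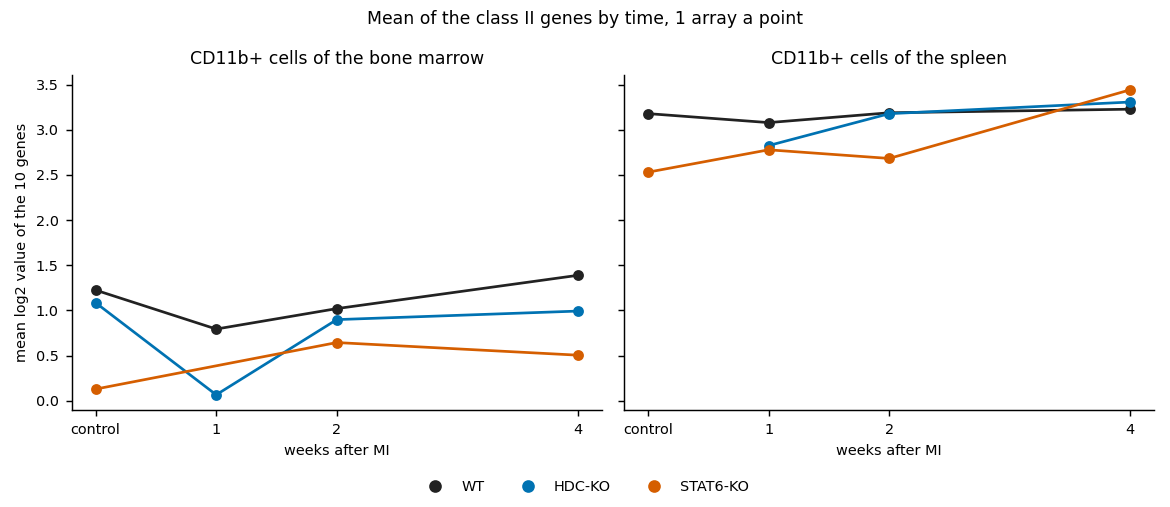
Mean log2 value of the 10 class II genes (y axis) by time after MI in weeks (x axis), by genotype (colour), in bone marrow (left) and spleen (right), 1 array a point. WT stays between 3.08 and 3.23 in the spleen; HDC-KO bone marrow falls to 0.07 at 1 week; STAT6-KO control arrays are the lowest of their genotype in both tissues, at 2.53 and 0.13.

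By time, the mean of the 10 genes in WT spleen was 3.18 in the control and 3.08, 3.19 and 3.23 after MI at 1, 2 and 4 weeks. In STAT6-KO spleen it was 2.53 in the control and 2.78, 2.68 and 3.44 after MI. STAT6-KO bone marrow was at 0.13 in the control and 0.64 and 0.50 at 2 and 4 weeks, and WT bone marrow at 1.22, then 0.79, 1.02 and 1.39. STAT6-KO arrays after MI were all above the STAT6-KO control for 7 of the 10 genes in the spleen (15.5% of all genes) and 8 of 10 in the bone marrow (31.1%). They were all below it for 0 (24.2% and 37.2% of all genes). HDC-KO bone marrow arrays after MI were all below their control for 6 of 10 (22.5%) and all above it for 0 (29.2%). In WT spleen, arrays after MI were all above their control for 3 genes (27.9% of all genes) and all below for 2 (24.4%). In WT bone marrow, they were all above it for 2 (34.7%) and all below for 3 (21.1%). With 1 control array a genotype and tissue, this rests on that array.

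The members did not vary as 1 block over the arrays of a tissue. In bone marrow, the 15 pairs among H2-Aa, H2-Ab1, H2-Eb1, Cd74, H2-DMa and H2-DMb1 had Pearson correlations of 0.67 to 0.98 over 11 arrays, and H2-Ob had -0.10 to 0.20 with these 6. In spleen the same 15 pairs ran from 0.03 to 0.94, the highest being H2-Ab1 with H2-Eb1, while H2-Ob went most with H2-DMb2 (0.88). This grouping was made after the values were seen, and the arrays share slides, genotypes and scaling. Each gene was taken on its chosen probe, and the second H2-Ob probe was not set against the other members.

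H2-Ob and H2-Oa followed the B cell markers in bone marrow. Over the 11 arrays, H2-Ob had r = 0.94 and rho = 0.88 with the log2 sum of the B cell markers (r = 0.86 without the 2 arrays farthest from the median), and H2-Oa had r = 0.81 and rho = 0.74 (r = 0.80 without them). H2-DMb2 had r = 0.59 and rho = 0.64 (r = 0.35 without them). H2-Aa, Cd74 and H2-DMb1 had r of 0.26, 0.26 and 0.21, and of 0.43, 0.53 and 0.42 without those 2 arrays. The WT array 1 week after MI differed between these genes: its B cell marker sum was 2.35, the lowest of the 11, its H2-Ob was -3.47 and its H2-Oa -2.93, while its Cd74 was 4.18 and its H2-Ab1 5.63, both within the range of the other WT arrays. The second H2-Ob probe did not show this relation (r = 0.12, rho = -0.15), and with at most 4 arrays a genotype no correlation within a genotype is given. In spleen, H2-Ob had r = 0.74 with the B cell markers (0.49 without 2 arrays) and H2-Oa 0.10. A close relation to a list was not particular to the B cell markers. Over the same bone marrow arrays, H2-DMa had r = 0.95 with the T cell markers. Cd74 and H2-DMb1 had -0.85 and -0.86 with the plasma cell markers. H2-Oa had -0.71 with the plasma cell markers and with the neutrophil granule markers.

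**Figure D5:**
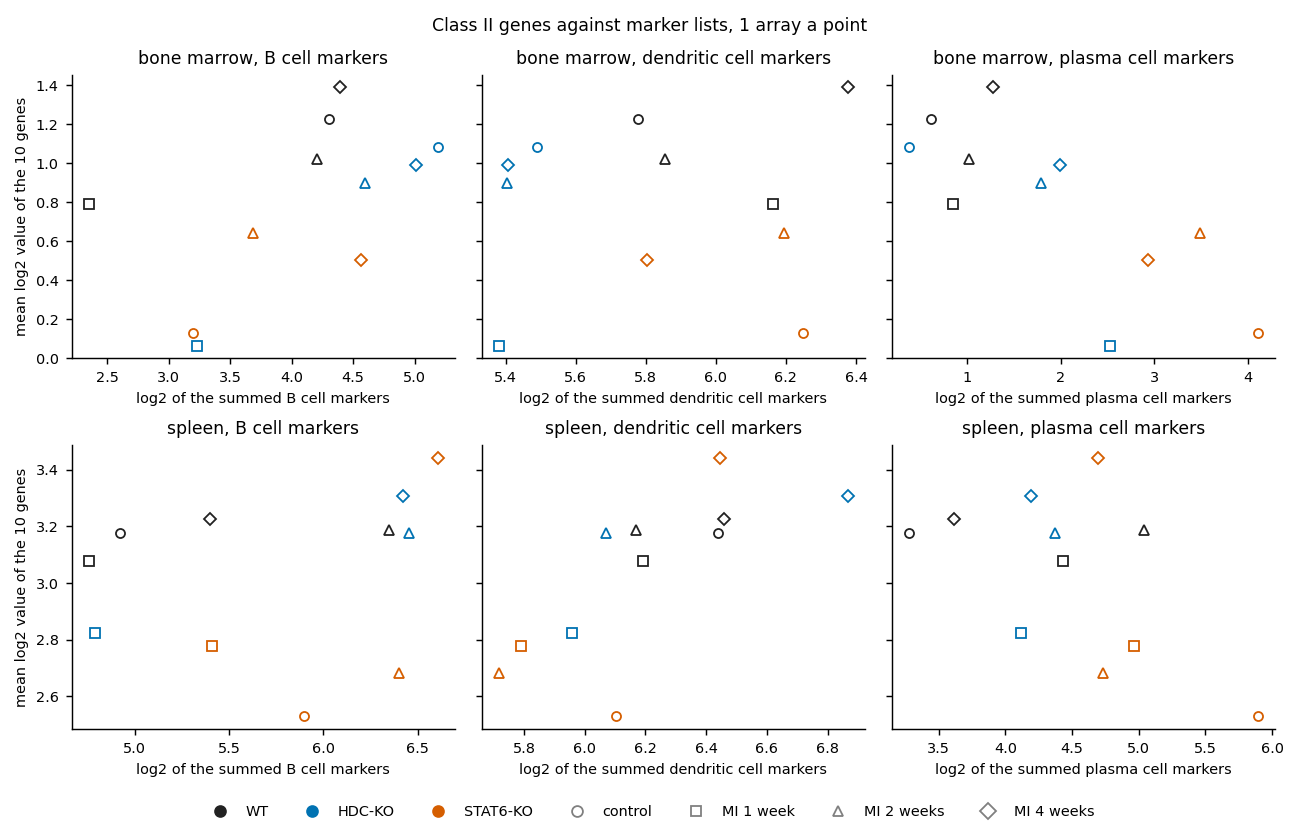
Mean log2 value of the 10 class II genes (y axis) against the log2 of the summed markers of B cells, dendritic cells and plasma cells (x axes), in bone marrow (top) and spleen (bottom), 1 array a point, colour for genotype and symbol for time. In bone marrow the STAT6-KO arrays lie apart from WT on the plasma cell axis, at 2.94 to 4.10 against 0.62 to 1.27.

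The genes most like the class II set were found by the correlation with the mean of the 10 over 22 arrays, after subtraction of the mean of each tissue, among 14071 genes. The 10 highest were Bcl2l11 (0.82), Selenow (0.81), Gpr132 (0.81), Gpr18 (0.81), Dpysl2 (0.80), 2200002D01Rik (0.79), Tlr11 (0.79), Slc9a7 (0.79), Trp53 (0.79) and Scimp (0.79). All 10 had positive correlations in each tissue on its own, from 0.40 (Tlr11, spleen) to 0.95 (Tlr11, bone marrow). These genes were picked by the correlation over the same arrays, so the values within a tissue are a description and no separate support.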

How the data were processed

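The authors hybridised RNA of CD11b+ cells to 1-colour Agilent arrays and deposited the scanner output of each array. Its header names Agilent Feature Extraction 11.0.1.1. The processed signal is an intensity, already background-subtracted by that software. The submitters' processing notes name GCRMA, whose role is not given in the sources used here. From the deposited intensity, log2 was taken and the 75th percentile of the array subtracted. Control spots and 3055 outlier spots were left out, no spot was saturated, spots of a probe were averaged, and the probe with the highest mean stood for a gene. Probes well above background on at least 2 arrays of a fit were tested with limma 3.58.1 in R 4.3.3, with Benjamini-Hochberg adjustment over all genes and a threshold of 0.05. The tissue, genotype and MI fits were run on simulated data whose spread was independent between arrays. The simulation held no spread shared by a slide, and it left out the interactions.

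Tissue was compared over 20 arrays with the pair of genotype and time as a block, genotype and MI within a tissue over 11 arrays with additive terms for genotype and time, and the interactions over 22 arrays with the pair as a random block. The t-test of the study's methods was an alternative, with other backgrounds, scalings and filters and with arrays left out. That t-test was unpaired, with the arrays of a group as replicates. Its calls needed an unadjusted p under 0.05 and a fold change over 2. The number of arrays limits the precision. Named genes were the 10 members, at most 3 rises and 3 falls of a list among the calls, marker levels, the 10 genes most like the members, and Hdc and Stat6. The members and lists were chosen with earlier results of these data known. Marker genes named one by one outside this rule were chosen after their values were seen.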

Additional observations from a re-analysis of the deposited data

Results flagged for a closer look

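The STAT6-KO difference from WT in H2-DMb1 was 0.79 higher in the spleen than in the bone marrow by the interaction test (limma, adjusted p = 0.0485). It was the only call among the 10 members, where 5.93% of all genes passed. The call held under 5 of 15 alternatives, with values of 0.66 to 1.01. It was lost when any time point was left out. It was also lost without the last STAT6-KO spleen array after MI, whose Stat6 values were partly within the WT range.

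In other cases every array of 1 genotype after MI was below its control and every STAT6-KO array after MI was above its own. Each difference given is the STAT6-KO mean change minus that of the other genotype on the log2 scale. It was not tested, and it rests on 1 control array a genotype. In the spleen, H2-Aa differed by 1.07 from WT over 3 time points each. In bone marrow, STAT6-KO had no MI 1 week array, so its mean is over 2 time points and that of the other genotype over 3, and the value over the 2 time points that both have follows each difference. H2-Aa differed by 0.66 from WT (0.64 over the matched time points) and by 0.79 from HDC-KO (0.47). H2-Ab1 differed by 0.94 (0.73) and Cd74 by 1.02 (0.61) from HDC-KO. H2-Oa differed by 0.96 from WT (0.71) and by 1.13 from HDC-KO (0.85). H2-Ob differed by 2.72 from WT (1.86) and by 2.63 from HDC-KO (2.08), on its chosen probe. The HDC-KO MI 1 week array thus moved the H2-Aa and Cd74 values by over 1.5 times.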

How the results depend on the processing

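All 10 differences between the tissues kept their direction under 17 alternatives, and the number called was 9 or 10. In bone marrow, the number of class II genes called for STAT6-KO (4) was 0 with both genotypes alone and 0 without the WT MI 1 week and STAT6-KO MI 4 weeks arrays (chosen after seeing the data), 0 to 3 when a time point was left out, and 5 (H2-Oa added) when a probe had to be above background on each array of the fit. For STAT6-KO in spleen it was 0 in place of 1 with normexp, quantile normalization, scaling on probes well above background on all arrays, no filter, both genotypes alone, the methods' t-test, without the library labelled STAT6-KO MI 4 weeks, and without that pair of arrays, and 0 to 0 when a time point was left out. For the STAT6-KO interaction it was 0 in place of 1 with normexp, the mean over probes, no filter, no pair block, without the library labelled STAT6-KO spleen MI 4 weeks and without that pair of arrays, and 0 to 0 when a time point was left out. For HDC-KO in bone marrow it was 1 by the methods' t-test, before adjustment, in place of 0. The cause was not tested. No called member changed direction under any alternative tried.

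Counts over all genes moved more: 6216 to 15185 between the tissues, 0 to 2597 for HDC-KO in spleen, 3 to 998 in bone marrow, 4 to 964 for STAT6-KO in spleen, 0 to 1489 in bone marrow, 0 to 5 and 0 after MI, and 0 to 968 and 132 to 1649 for the interactions. The share of calls that were higher went from 73.3% to 50.5% (quantile) for HDC-KO in spleen, from 34.2% to 45.7% for STAT6-KO in spleen, from 86.4% to 68.5% in bone marrow, and from 60.9% to 32.6% and 9.79% to 27.5% for the interactions. Normexp moved the median of all genes by 0.33 for STAT6-KO in spleen and by 0.39 for its interaction.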
